A study of Homo sapiens with 48 samples.

Results

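The experiment described here is the siRNA treatment of the FE-ER line, the Flp-In 293 T-REx line labelled CLIP-UPF1 FE-ER. Its members were chosen by their labels: 3 libraries of FE-ER cells given an siRNA against UPF1 (siUPF1) and 3 of FE-ER cells given a non-targeting siRNA (siNT), 6 of the 48 libraries in the series. Flp-In 293 T-REx is a human embryonic kidney line with 1 recombination site into which a transgene is inserted, so that each line carries the same insertion point. The FE-ER line stably expresses a UPF1 mutant fused to the CLIP tag, a protein tag that can be labelled chemically. The label shares letters with those of 2 other lines, F192E and E797R, but its meaning is not spelled out and it is used here as a name only. The lines set beside it were F192E and E797R, WT (CLIP-tagged wild-type UPF1) and CLIP (the tag alone), each with 3 siUPF1 and 3 siNT libraries. The remaining 3 lines, labelled CLIP-UPF1 I757R, IR-ER and LECY and likewise of 3 libraries per siRNA, enter the fit, the principal components and the order of responses. The names IR-ER and LECY are not spelled out either. All of these cells, controls included, are of the same parental line, were reverse-transfected with 40 nM siRNA and were harvested after 72 h. Whether a line is 1 clone or a pool, whether doxycycline was added and what the siRNA sequences were is not given in the sources used here. The series' design text calls the 3 replicates of a group biological, and says that the siRNA targets endogenous UPF1.

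UPF1 is an RNA helicase and ATPase at the centre of nonsense-mediated mRNA decay (NMD), the pathway that degrades transcripts on which translation ends far upstream of an exon junction or of the 3' end. The kinase SMG1, with SMG8 and SMG9, phosphorylates UPF1, UPF2 and UPF3B connect it to exon junction complexes, and SMG5 and SMG6 take part in decay. Many of these factors are encoded by transcripts that NMD itself degrades, as are the spliced RNAs of snoRNA host genes and isoforms of splicing factors that carry a poison exon. The comparison asks how the transcriptome of FE-ER cells changes when endogenous UPF1 is targeted in the presence of this mutant.

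The 3 siUPF1 libraries held 7462438 to 9233366 expected counts and the 3 siNT libraries 6870878 to 10511746, within the range of all 48 libraries (6016999 to 14551820). On the first principal component of all 48 libraries, which held 26.3% of the variance, siUPF1 libraries lay at 10.2 to 40 and siNT libraries at -32.7 to -19.2. On the second (13.8%), the replicate 2 libraries of all lines lay at -31.3 to -9.7 and the others at -16.7 to 36.2. Mitochondrial mRNAs took 3.65%, 2.3% and 4.28% of the counts in FE-ER siUPF1 libraries and 2.69%, 2.39% and 2.99% in FE-ER siNT libraries. The 8 markers of the 293 line were all detected, with a summed level of 1460 to 1710 CPM with siUPF1 and 1390 to 1570 CPM with siNT. Of the lists for other cell types, the 9 epithelium markers summed to 134 to 149 CPM with siUPF1 and 119 to 143 CPM with siNT (5 at 0 in all 6 libraries). The 9 fibroblast markers summed to 7.81 to 11.5 CPM with siUPF1 and 8.45 to 10.1 CPM with siNT (COL1A2 and DCN at 0), and the 9 blood cell markers to 9.03 to 12 CPM with siUPF1 and 7.72 to 9.39 CPM with siNT (PTPRC and CD3E at 0). The 7 endothelium markers summed to 0.904 to 1.2 CPM with siUPF1 and 1.02 to 1.77 CPM with siNT (PECAM1 at 0), and the 7 liver markers to 0 to 0.129 CPM with siUPF1 and 0.146 to 0.469 CPM with siNT (4 at 0). CPM is the read count scaled to library size with TMM factors, and it can be compared between libraries for 1 gene but not between genes of different length.

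The level of UPF1 itself (chr19:18831938-18868236, hg38) did not pass the test in this line. It stood at 4956, 4983 and 4518 CPM in the siUPF1 libraries (mean 4819 ± 261, SD, n = 3) and at 5116, 3877 and 4220 CPM in the siNT libraries (4405 ± 640). The groups overlapped, with a log2 fold change of 0.13 (SE 0.11, adjusted p = 0.472) and a two-sided exact permutation p of 0.4, where 3 libraries against 3 cannot give a p below 0.1. The siUPF1 level was 45.6 times, and the siNT level 41.7 times, the mean of CLIP cells with siNT. In CLIP cells, which have only the endogenous gene, UPF1 was at 20.4, 21.3 and 19.5 CPM with siUPF1 and at 111, 97.2 and 109 CPM with siNT. Reads of the transgene and of endogenous UPF1 are summed at this gene, so the values in FE-ER do not show how far the endogenous transcript was depleted there.

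**Figure D1:**
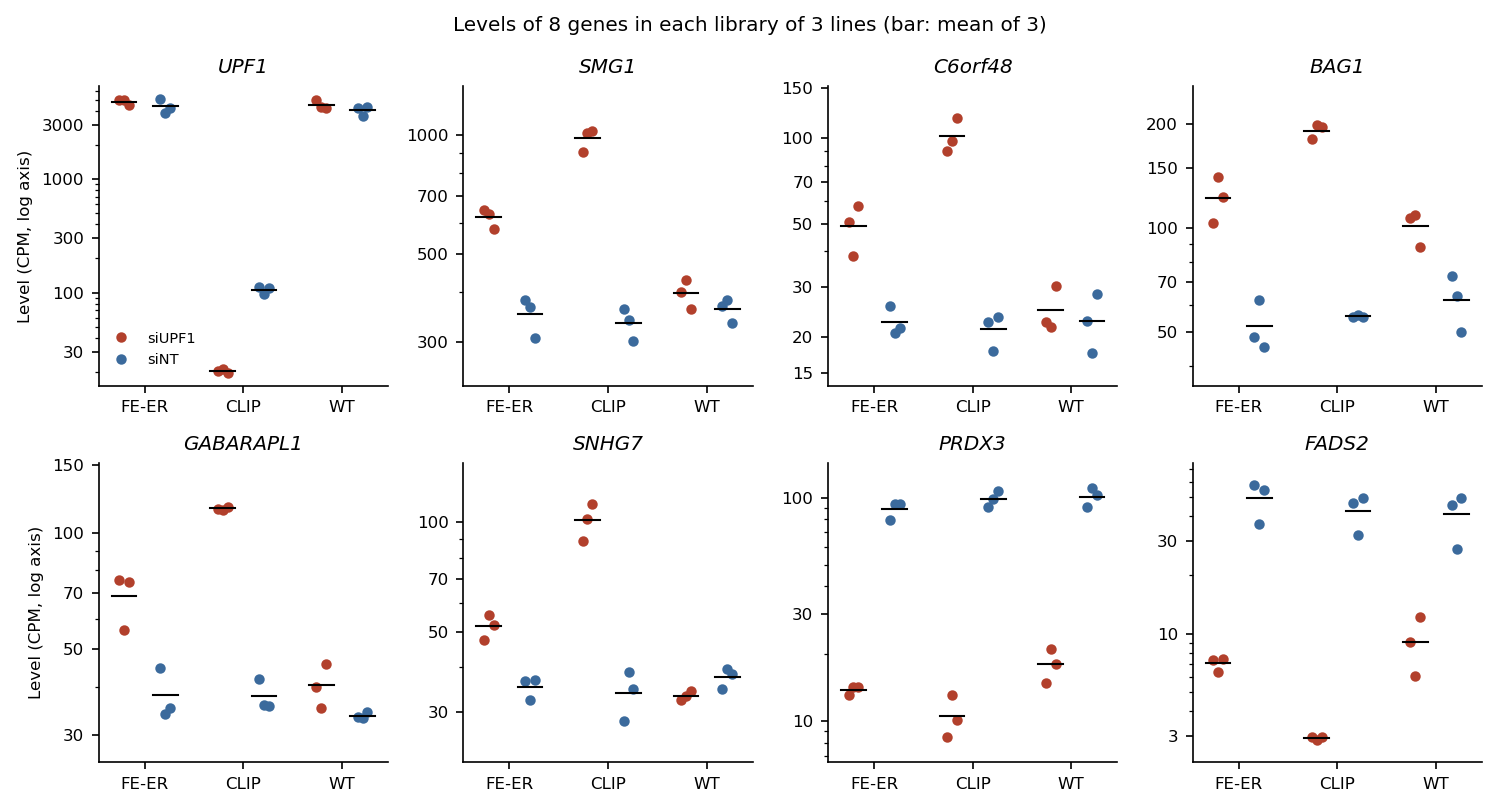
Level of 8 genes in CPM (log axis) in each of 3 siUPF1 libraries (red, left of each pair) and 3 siNT libraries (blue) of the FE-ER, CLIP and WT lines, with black bars for the mean of 3. UPF1 lies at 3877 CPM or more in every FE-ER library, and SMG1, C6orf48, BAG1, GABARAPL1 and SNHG7 lie higher with siUPF1 than with siNT in FE-ER, at levels below those of CLIP cells with siUPF1.

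With siUPF1, 1688 genes rose in FE-ER cells and 1422 fell, of 16697 tested (10.1% and 8.52%, at an adjusted p under 0.05). This and every adjusted p below comes from the quasi-likelihood test of edgeR, with p-values corrected by Benjamini and Hochberg over all genes tested. Of these, 177 rose and 292 fell by at least 2-fold. In 3006 of the 3110 genes called the 6 libraries separated without overlap, which was so for 34% of all genes tested. Libraries with the same replicate number deviated together in this line, and with the replicate number as a block 2699 genes rose and 2493 fell (16.2% and 14.9%). Leaving out 1 library at a time gave 1131 to 1397 rises and 1071 to 1260 falls, and without both replicate 2 libraries there were 1026 rises and 991 falls. Protein-coding genes made up most of the calls, with 1568 rises and 1317 falls among 13306 tested (11.8% and 9.9%). Of 1191 pseudogenes 58 rose and 19 fell (4.87% and 1.6%), and of 2036 long noncoding genes 60 rose and 85 fell (2.95% and 4.17%).

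Among the genes that rose most were HSPB8, a small heat shock protein, WNK4, a kinase that regulates renal ion transport, PAQR6, a membrane progestin receptor, DOK3, an adaptor of immune cell signalling, and G0S2, an inhibitor of the triglyceride lipase ATGL. WNK4 was at 12.3, 12.8 and 11.5 CPM with siUPF1 and at 2.39, 2.33 and 3.19 CPM with siNT, a log2 fold change of 2.18 (SE 0.28, adjusted p = 1.75e-07). PAQR6 had 10.1, 7.68 and 13.8 CPM with siUPF1 and 2.6, 2.04 and 2.63 CPM with siNT (log2 2.10, SE 0.31, adjusted p = 2.69e-06). Genes were named here only if their groups did not overlap, and in both of these every siUPF1 library stood at more than 2 times every siNT library. HSPB8 had 4, 3.64 and 4.04 CPM with siUPF1 and 1.04, 0.874 and 0.563 CPM with siNT (log2 2.24, SE 0.59, adjusted p = 0.00526), and G0S2 had 5.3, 4.58 and 5.36 CPM with siUPF1 against 1.25, 1.31 and 1.88 CPM with siNT (log2 1.75, SE 0.35). DOK3 (log2 2.02), IGFN1, a muscle protein with immunoglobulin-like domains (1.98), MAMDC4, an endosomal protein (1.95), and ADM5, a relative of adrenomedullin (1.78), also rose. These rises were of similar size in CLIP cells for WNK4 (log2 2.28), PAQR6 (2.16), HSPB8 (2.10), DOK3 (2.04), MAMDC4 (1.84) and G0S2 (2.07). ADM5 rose by 1.22 in CLIP, and IGFN1 did not pass there (0.79, adjusted p = 0.223). None of the 12 largest rises passed the test of the difference from CLIP.

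The largest estimate belonged to NPIPA8, a member of a gene family of near-identical copies on chromosome 16, which had 7.36, 6.06 and 2.73 CPM with siUPF1 and 0.208, 0.874 and 1.13 CPM with siNT (log2 2.84, SE 0.76, adjusted p = 0.00622). RSEM divides reads among such copies by estimation, so this value is uncertain. NCKAP1L, a WAVE complex subunit of blood cells, had 2.45, 2.02 and 5.36 CPM with siUPF1 and 0.831, 0.291 and 1.41 CPM with siNT (log2 1.88, adjusted p = 0.0103). Its call was lost without siUPF1 replicate 3 (adjusted p = 0.149) or siNT replicate 2 (0.0616). AL157935.2 (log2 2.12, adjusted p = 0.035) lost its call without siUPF1 replicate 2 or 3 or siNT replicate 2 or 3 (adjusted p = 0.064 to 0.158), and AC074143.2 (log2 1.79) kept its call throughout. In CLIP cells NPIPA8 (log2 2.13) and AC074143.2 (1.48) rose, and AL157935.2 (1.59, adjusted p = 0.105) and NCKAP1L (0.47, 0.586) did not pass. WT cells gave log2 values of 2.43 for PAQR6, 1.94 for MAMDC4, 1.92 for G0S2 and 1.69 for WNK4. Values there were 1.45 for NCKAP1L, 1.40 for HSPB8, 1.39 for IGFN1 and 1.20 for DOK3. ADM5 (0.76), AL157935.2 (0.52), AC074143.2 (0.42) and NPIPA8 (-1.08) had lower ones, but none of the 12 genes passed the test of the difference from WT.

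The largest falls included 2 genes with a metabolic role, PRDX3, the peroxidase of mitochondria, and FADS2, the delta-6 fatty acid desaturase. PRDX3 (chr10:119167703-119178833) stood at 13, 14.1 and 14.2 CPM with siUPF1 and at 79.6, 93.7 and 93.8 CPM with siNT, a log2 fold change of -2.69 (SE 0.16, adjusted p = 2.2e-15). FADS2 (chr11:61792980-61867354) stood at 7.36, 6.33 and 7.43 CPM with siUPF1 and at 58, 36.4 and 54.6 CPM with siNT (log2 -2.82, SE 0.28, adjusted p = 1.61e-09). These genes too were named only without overlap, and in both each siUPF1 library was below each siNT library by more than 4 times. MSX1, a homeobox transcription factor, had 6.33, 4.45 and 4.81 CPM with siUPF1 against 32.7, 26.1 and 28.9 CPM with siNT (log2 -2.49, SE 0.17, adjusted p = 2.41e-14), and RIDA, a deaminase of reactive enamines, fell by 2.44 on the log2 scale. All 4 genes fell in the other lines too: PRDX3 had log2 values of -3.21 in CLIP and -2.50 in WT, FADS2 of -3.87 and -2.14, MSX1 of -2.99 and -2.51, and RIDA of -2.65 and -2.41.

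Among the remaining large falls, CPLX2, a complexin of synaptic vesicle fusion, had 0.775, 0.135 and 0.547 CPM with siUPF1 and 3.01, 3.5 and 4.88 CPM with siNT (log2 -2.92, SE 0.54, adjusted p = 0.000105). DLGAP3, a scaffold of the postsynaptic density, fell by 2.36 on the log2 scale, the B cell transcription factor gene PAX5 by 2.22 and the ETS factor gene ETV4 by 2.21. The summed level of the 9 neuron or glia markers was 47.3 to 64.3 CPM with siUPF1 and 69.2 to 86.6 CPM with siNT, and 2 of the 6 tested fell, the synaptophysin gene SYP (log2 -1.01, adjusted p = 0.00036) and RBFOX3 (-1.78, adjusted p = 0.0157). The 6 tested had a median log2 change of -0.38 in FE-ER, -0.48 in CLIP and -0.59 in WT, with 3 falls in CLIP and 3 in WT. Over all genes tested 8.52% fell in FE-ER, 15.6% in CLIP and 6.98% in WT. All cells are of the same parental line, and in bulk RNA a changed mix of cells and less RNA per cell cannot be told apart. The part of these markers in the falls was not tested. NOTCH3, a Notch receptor, had 2.07, 1.21 and 1.53 CPM with siUPF1 and 10.4, 3.64 and 11.9 CPM with siNT (log2 -2.45, SE 0.78, adjusted p = 0.0232). Its call was lost on leaving out any 1 library other than siNT replicate 2 (adjusted p = 0.0531 to 0.094), and that of MGAT3, an enzyme of N-glycan branching (log2 -2.33, adjusted p = 0.0168), without siUPF1 replicate 2 (0.0806) or siNT replicate 1 (0.0732). AC055839.2 (log2 -2.27) kept its call throughout.

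**Figure D2:**
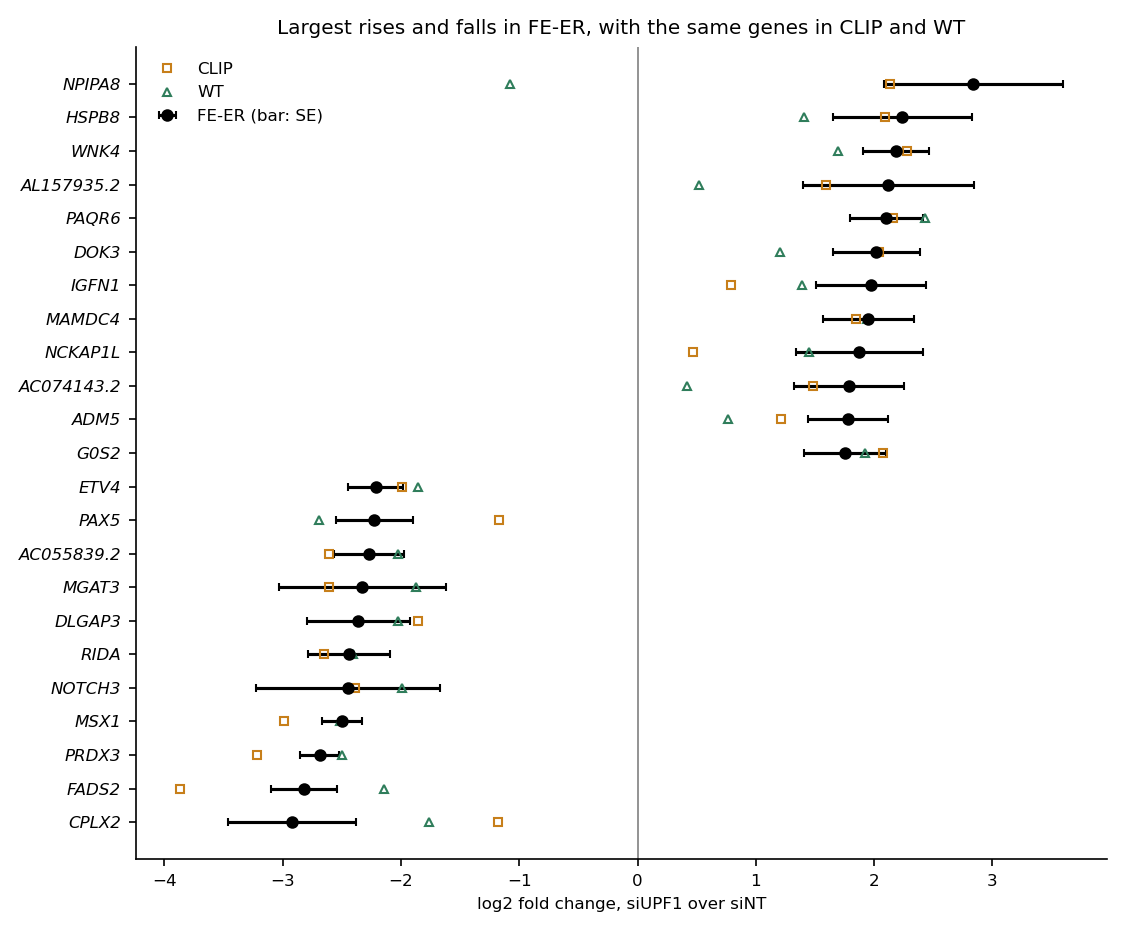
Log2 fold change of siUPF1 over siNT for the 12 largest rises and 11 of the 12 largest falls in FE-ER cells (black circles, bars are SE), with the estimates for the same genes in CLIP (squares) and WT (triangles). These falls lie below -2 in FE-ER and on the same side of 0 in CLIP and WT, whereas NPIPA8 lies at 2.84 in FE-ER and at -1.08 in WT.

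Genes of the NMD pathway itself rose in part. Each list count below is to be set beside the FE-ER shares over all genes tested, 10.1% for rises and 8.52% for falls. List counts with the replicate block are to be set beside 16.2% for rises and 14.9% for falls. Those of other lines have their own shares: 18.1% and 15.6% in CLIP, 8.43% and 6.98% in WT, 11.8% and 10.1% in F192E, and 8.34% and 7.73% in E797R. Of 18 NMD factors tested, 6 rose (among them SMG1, SMG9, UPF2, UPF3A and PNRC2), 1 fell (RUVBL1, an ATPase that assembles large complexes), and 11 did not pass. SMG1 (chr16:18804853-18926454), the kinase that phosphorylates UPF1, had 647, 632 and 579 CPM with siUPF1 and 381, 368 and 306 CPM with siNT (log2 0.82, SE 0.09, adjusted p = 4.47e-09). Its groups stood apart, as did those of UPF3A, a paralog of UPF3B (121, 132 and 160 CPM with siUPF1 against 104, 101 and 93.1 CPM with siNT, log2 0.47). SMG1 has near-identical pseudogene copies, so its counts are uncertain. RUVBL1 had 136, 127 and 131 CPM with siUPF1 and 195, 199 and 206 CPM with siNT (log2 -0.61, SE 0.07, adjusted p = 8.17e-08). SMG5 and SMG6, 2 factors that did not pass in FE-ER (log2 -0.15 and -0.07), had log2 values of 0.72 and 0.57 in CLIP cells, and the difference between the lines passed for both (adjusted p = 0.0114 and 0.013). Across the 18 factors the median log2 change was -0.05 in FE-ER, against 0.30 in CLIP and -0.0002 in WT. The 6 rises became 3 without siUPF1 replicate 3, siNT replicate 1 or siNT replicate 3, and the fall became 2 without siUPF1 replicate 2 or siNT replicate 3, or 3 with the replicate block.

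Of 46 established NMD targets, 10 rose in FE-ER, 4 fell and 32 did not pass (over all genes 10.1% rose and 8.52% fell). In CLIP cells 29 rose and 4 fell (over all genes 18.1% and 15.6%), and in WT cells 1 rose and 4 fell (8.43% and 6.98%). BAG1, a co-chaperone of HSP70, had 104, 141 and 123 CPM with siUPF1 and 48.5, 62.2 and 45.5 CPM with siNT (log2 1.24, SE 0.17, adjusted p = 1.25e-06). GABARAPL1, a protein of the autophagosome membrane, had 75.4, 56.2 and 74.7 CPM with siUPF1 and 44.8, 34.1 and 35.4 CPM with siNT (log2 0.85, SE 0.14, adjusted p = 1.36e-05). No siUPF1 library of either gene fell among the siNT libraries. The other rises included SMG1, UPF2, SMG9, the pseudogene RP9P (log2 1.02), ARC, a neuronal protein of the synapse (1.56), the stress gene ZFAND2A (0.52) and the transcription factor gene ATF4 (0.31). The 4 falls were RPL12 (log2 -0.61), TNFRSF10B (-0.38), EIF4A2 (-0.36) and HNRNPDL (-0.31), whose estimates were also below 0 in CLIP and WT. The median log2 change of the 46 genes was -0.01 in FE-ER, 0.71 in CLIP and -0.09 in WT, where the median over all genes was 0.01 in FE-ER. For 16 of the 46 the response was lower in FE-ER than in CLIP (1.2% over all genes), and for SMG1 it was higher than in WT (0.00599% over all genes). The 10 rises became 6 without siNT replicate 1 or 3, and the 4 falls became 7 with the replicate block. ZFAND2A lost its call without siNT replicate 1 (adjusted p = 0.0523) or 3 (0.0995), and HNRNPDL in 4 of the 6 leave-one-out fits (0.0599 to 0.0877, without siUPF1 replicate 1 or 3 or siNT replicate 2 or 3).

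Among 27 snoRNA host genes tested, whose spliced RNAs are classical NMD substrates, 5 rose and 1 fell, with a median log2 change of 0.23 in FE-ER, 0.72 in CLIP and -0.15 in WT. SNHG7 had 47.4, 55.6 and 52 CPM with siUPF1 and 36.7, 32.3 and 36.9 CPM with siNT (log2 0.55, SE 0.10, adjusted p = 0.000141). C6orf48 (also SNHG32) had 50.6, 38.4 and 57.6 CPM with siUPF1 and 25.8, 20.7 and 21.5 CPM with siNT (log2 1.11, SE 0.23, adjusted p = 0.000516), and SNHG20 rose by a log2 value of 0.51. All 3 genes separated the siRNAs without overlap. SNHG29 (log2 0.48) and EPB41L4A-AS1 (0.44) were the other rises, and EIF4A2, a translation initiation factor that hosts snoRNAs, was the fall. GAS5 and SNHG1, 2 of the best known hosts, gave log2 values of -0.11 and -0.04 in FE-ER and of 0.72 and 0.89 in CLIP, and both differences passed (adjusted p = 0.0425 and 0.0022). With the replicate block 11 hosts rose and 2 fell. The 5 rises became 3 without siUPF1 replicate 3, and the fall became 2 without siUPF1 replicate 2.

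Of 39 splicing factors with poison exons 3 rose, 4 fell and 32 did not pass, close to the shares over all genes (10.1% rose and 8.52% fell), with a median log2 change of -0.12 in FE-ER, -0.12 in CLIP and -0.04 in WT. HNRNPH3 had 345, 404 and 485 CPM with siUPF1 and 284, 315 and 305 CPM with siNT (log2 0.45, SE 0.10, adjusted p = 0.000825). LUC7L3, a U1 snRNP protein, had 233, 214 and 275 CPM with siUPF1 and 481, 478 and 477 CPM with siNT (log2 -0.99, SE 0.10, adjusted p = 2.82e-09), a fall of about the same size in CLIP (-1.01) and WT (-0.97). Gene totals sum the productive and the poison isoforms, which these values cannot separate. SNRPB, a core snRNP protein (log2 -0.33, adjusted p = 0.0168), lost its call without siUPF1 replicate 1 (0.0779) or 3 (0.127) or siNT replicate 2 (0.102). The 3 rises became 1 without siUPF1 replicate 1 or 3 or siNT replicate 1 or 3, and the 4 falls became 1 without siUPF1 replicate 1 or 3, 2 without siNT replicate 2 and 13 with the replicate block. None of the 13 exon junction complex genes passed in edgeR, with 1 higher and 1 lower at an unadjusted p under 0.05 and 1 rise in DESeq2. The smallest p belonged to UPF3B (log2 0.30, adjusted p = 0.0539), while with the replicate block 2 rose (UPF3B, adjusted p = 0.0144, and RBM8A, 0.00479) and ALYREF fell (0.0246).

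Among 12 glucose-sensing and arrestin-domain genes 4 rose and none fell, with a median log2 change of 0.39 in FE-ER, 0.52 in CLIP and 0.49 in WT. MLXIP (MondoA) and MLX form the transcription factor that senses glucose-6-phosphate, and TXNIP, an arrestin-domain protein that restrains glucose uptake, is their best known target. MLXIP had 238, 204 and 217 CPM with siUPF1 and 128, 122 and 116 CPM with siNT (log2 0.85, SE 0.11, adjusted p = 2.31e-07), and MLX had 60, 59.4 and 50.7 CPM against 35.2, 39.5 and 40.6 CPM (log2 0.56, SE 0.11). TXNIP (chr1:145992435-145996600) had 21.8, 12.1 and 15.6 CPM with siUPF1 and 8.11, 4.52 and 7.98 CPM with siNT (log2 1.24, SE 0.34, adjusted p = 0.00866). In each of these genes the lowest siUPF1 library was above the highest siNT library. TXNIP lost its call without siUPF1 replicate 1 (adjusted p = 0.0791) or siNT replicate 2 (0.0558), and TSC22D4 (log2 0.31, adjusted p = 0.0373) without siUPF1 replicate 1 or 2 or siNT replicate 2 or 3 (0.104 to 0.157). With the replicate block 9 of the 12 rose, and without siUPF1 replicate 1 or siNT replicate 2 there were 2 rises.

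The TXNIP promoter is shown because it is the only promoter of the list with the carbohydrate response element searched for. TXNIP was on the list as the best known target of MLXIP and MLX, and whether they changed its level here was not tested. The motif was a pair of E-box-like sites, CACGNG and CACGNG with any 5 bases between them, searched on both strands in RefSeq windows of 300 bases, 250 before to 50 after each start (GRCh38.p14). It was found in 20 of 35116 windows (0.057%), and among the 11 listed genes with a window in TXNIP alone. The window lies at chr1:145996530-145996829 on the minus strand, the sequence is printed 5' to 3' along that strand, and the capitals mark the match.
TXNIP promoter: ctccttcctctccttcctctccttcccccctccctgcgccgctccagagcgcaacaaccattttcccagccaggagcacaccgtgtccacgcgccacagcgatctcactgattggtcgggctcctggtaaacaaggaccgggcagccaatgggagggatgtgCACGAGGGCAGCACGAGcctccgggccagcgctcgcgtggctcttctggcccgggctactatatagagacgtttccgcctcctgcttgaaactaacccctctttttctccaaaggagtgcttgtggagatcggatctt
A match of letters is a description of this window and not a measurement of binding.

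Of 37 genes of the ATF4 response, the program of amino acid supply that follows eIF2 phosphorylation, 5 rose and 5 fell, beside shares over all genes of 10.1% and 8.52%, with a median log2 change of -0.01 in FE-ER, 0.61 in CLIP and -0.07 in WT. The rises included SLC7A5, an amino acid transporter (163, 127 and 152 CPM with siUPF1 against 72.7, 72 and 71.2 CPM with siNT, log2 1.03, adjusted p = 2.89e-07). The falls included 2 tRNA synthetase genes, NARS (154, 170 and 173 CPM against 282, 296 and 292 CPM, log2 -0.81, adjusted p = 1.95e-10) and WARS (log2 -0.47), and the serine synthesis gene PSAT1 (log2 -1.04). The fall of NARS was of similar size in CLIP (log2 -0.91) and WT (-0.72). The 5 rises became 2 without siUPF1 replicate 1 or 3 or siNT replicate 2 or 3. Of 21 unfolded protein response genes 4 rose and none fell, led by HYOU1, a chaperone of the endoplasmic reticulum (321, 315 and 296 CPM with siUPF1 against 225, 176 and 165 CPM with siNT, log2 0.72, adjusted p = 2.2e-05), and by SEC24D, a COPII coat protein (0.62). EDEM1 (log2 0.44) lost its call without siNT replicate 3 (adjusted p = 0.0584) and SYVN1 (0.37, adjusted p = 0.0356) in each leave-one-out fit but that without siNT replicate 2 (0.0565 to 0.157). Without siNT replicate 3 there were 2 rises, and with the replicate block 6 rises and 1 fall.

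Of 20 autophagy genes 4 rose and 2 fell, beside shares over all genes of 10.1% and 8.52%. ATG9A, the membrane protein of autophagosome formation, had 62.1, 59.7 and 52 CPM with siUPF1 and 33.9, 27.7 and 28.1 CPM with siNT (log2 0.95, SE 0.15, adjusted p = 6.82e-06). ATG2A, a lipid transfer protein, rose by a log2 value of 0.75, and ATG13, a subunit of the initiating kinase complex, fell by 0.70. ATG9A and ATG13 changed by about as much in CLIP (log2 1.06 and -0.63) and WT (0.92 and -0.82), whereas GABARAPL1 rose by less in FE-ER than in CLIP. The 2 falls became 1 without siUPF1 replicate 1 or 3 or siNT replicate 2 or 3. Of 19 heat shock genes 2 rose, near the share over all genes (10.1%). These were HSF1, the transcription factor of the response (58.2, 60.6 and 61.8 CPM with siUPF1 against 48.5, 35.8 and 46.2 CPM with siNT, log2 0.46, adjusted p = 0.00132), and ZFAND2A. They became 1 without siNT replicate 1 or 3, and with the replicate block 2 also fell.

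Genes that mark proliferation and the p53 response were lower in part. Of 24 p53 targets 9 fell and 1 rose, with a median log2 change of -0.17. In CLIP 7 fell and 1 rose (over all genes 15.6% and 18.1%), and in WT 7 fell and none rose (6.98% and 8.43%). RRM2B, a ribonucleotide reductase subunit, had 25.3, 24.8 and 24.9 CPM with siUPF1 and 44.9, 45.7 and 43.3 CPM with siNT (log2 -0.83, SE 0.12, adjusted p = 1.02e-06). TP53INP1, a stress-induced regulator of p53, had 7.62, 7.28 and 7.11 CPM with siUPF1 and 14.8, 15.4 and 15.7 CPM with siNT (log2 -1.06, SE 0.15, adjusted p = 1.06e-06). The replicates of each siRNA lay close together in both genes. POLH, a translesion polymerase gene, fell by 0.53 and the death receptor gene TNFRSF10B by 0.38 on the log2 scale. The rise was SESN2, a gene that ATF4 also induces, and it was lost without siUPF1 replicate 1 or 3 or siNT replicate 2 or 3. Cells of the 293 lineage carry adenoviral proteins, of which one binds p53.

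Of 25 cell division genes 8 fell and none rose, with a median log2 change of -0.26. HMMR, a protein of the mitotic spindle, had 47.5, 58.7 and 46.9 CPM with siUPF1 and 112, 119 and 114 CPM with siNT (log2 -1.18, SE 0.14, adjusted p = 2.9e-08), and KIF23, a kinesin of cytokinesis, had 120, 140 and 134 CPM against 211, 223 and 212 CPM (log2 -0.72, SE 0.13, adjusted p = 5.37e-05). AURKA, a mitotic kinase gene, fell by 0.47 and TOP2A, a topoisomerase gene, by 0.29. In CLIP 9 fell and in WT 3 fell and 2 rose, and HMMR gave log2 values of -1.15 and -0.95 there. The shares over all genes were 15.6% for falls in CLIP, and 6.98% for falls and 8.43% for rises in WT. The falls became 4 without siUPF1 replicate 3 and 5 without siNT replicate 3, and with the replicate block 15 fell and 2 rose. Of 30 DNA replication genes 8 fell and 3 rose, the rises near the share over all genes (10.1%). POLD1, the catalytic subunit of a replicative polymerase, had 87.9, 84.2 and 79.3 CPM with siUPF1 and 48.3, 39.8 and 45.7 CPM with siNT (log2 0.91, SE 0.14, adjusted p = 5.64e-06), while RFC5 (-0.40), TYMS (-0.49) and PRIM1 (-0.46) fell. The falls became 3 without siUPF1 replicate 3 or siNT replicate 2, and the rises 1 without siUPF1 replicate 1. Of 18 replication-dependent histone genes, 1 rose (HIST1H2AE, log2 0.73, adjusted p = 0.00756) and none fell, with 3 falls under the replicate block and 1 without siUPF1 replicate 2.

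Of 72 cytosolic ribosomal protein genes 14 fell and 1 rose, and 63 of the 72 estimates were below 0, with a median log2 change of -0.16 in FE-ER, -0.30 in CLIP and -0.18 in WT. RPS23 had 461, 481 and 491 CPM with siUPF1 and 775, 718 and 794 CPM with siNT (log2 -0.68, SE 0.08, adjusted p = 5.98e-08), and RPS24 and RPL12 fell by 0.66 and 0.61. The rise was RPLP0, a protein of the ribosomal stalk, with 991, 868 and 765 CPM with siUPF1 and 461, 403 and 486 CPM with siNT (log2 0.96, SE 0.17, adjusted p = 5.93e-05). RPLP0 thus moved against the other called genes of its list, with estimates of 0.98 in CLIP and 0.96 in WT. With the replicate block 30 fell and 1 rose. Ribosomal protein genes have many processed pseudogenes, among which their reads can be divided.

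Of 31 cholesterol and fatty acid synthesis genes 3 rose and 4 fell, near the shares over all genes (10.1% and 8.52%), with a median log2 change of 0.02. Beside FADS2 its neighbour FADS1, the delta-5 desaturase gene, had 25.4, 22.6 and 29.8 CPM with siUPF1 and 58.3, 47.3 and 61.2 CPM with siNT (log2 -1.10, SE 0.12, adjusted p = 7.94e-09). ACACA, which makes malonyl-CoA, rose (log2 0.48, adjusted p = 0.000137) and ACLY, which makes cytosolic acetyl-CoA, fell (-0.41). The 3 rises became 1 without siUPF1 replicate 1 or 3 or siNT replicate 2 or 3, and with the replicate block 10 rose and 8 fell. Of 22 peroxiredoxin and thioredoxin genes 3 rose and 3 fell, beside the same shares over all genes. PRDX3 and PRDX2 (162, 162 and 178 CPM with siUPF1 against 243, 249 and 257 CPM with siNT, log2 -0.58, adjusted p = 6.33e-06) fell, and PRDX1 (log2 0.56, adjusted p = 0.0211) and the mitochondrial thioredoxin reductase gene TXNRD2 (0.54) rose. PRDX1 lost its call without siUPF1 replicate 2 (adjusted p = 0.115) or 3 (0.0578) or siNT replicate 1 (0.191), and TXNRD2 without siNT replicate 3 (0.073). The 3 rises of the list became 1 without siUPF1 replicate 2 or siNT replicate 1 or 3, and 5 without siNT replicate 2 or with the replicate block.

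In the Notch pathway 5 of 22 genes fell and 1 rose. JAG1, a ligand, had 23.9, 22.2 and 20.4 CPM with siUPF1 and 54.7, 45 and 51.9 CPM with siNT (log2 -1.19, SE 0.11, adjusted p = 1.11e-10), and the target genes HEY1 (-0.55) and HES1 (-0.35), the DNA-binding partner gene RBPJ (-0.37) and NOTCH3 fell with it. The receptor gene NOTCH2 rose (log2 0.35, adjusted p = 0.00791), with 2 leave-one-out fits above the threshold, without siUPF1 replicate 1 (0.112) and without siNT replicate 3 (0.0555). The 5 falls became 3 without siUPF1 replicate 1 or 2 or siNT replicate 1 or 3, and the replicate block gave 6 falls and 2 rises. Of 33 genes of general mRNA decay 4 rose and 4 fell, near the shares over all genes (10.1% and 8.52%). The falls were 2 deadenylase genes, CNOT6 (46.4, 60.9 and 54.9 CPM with siUPF1 against 81.3, 91 and 101 CPM with siNT, log2 -0.75, adjusted p = 1.91e-05) and CNOT7 (-0.81), the nuclear exonuclease gene XRN2 (-0.35) and STAU1 (-0.49), whose protein binds UPF1 in a related decay pathway. The 4 rises were in the decapping genes DCP1A (log2 0.29) and PATL1 (0.32), the deadenylase subunit gene CNOT3 (0.32) and the exosome cofactor gene SKIV2L (0.33), and they became 0 to 2 on leaving out any 1 of the 6 libraries, while with the replicate block 9 fell.

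Of 20 selenoprotein genes 3 rose and 2 fell, beside shares over all genes of 10.1% and 8.52%. SELENOW had 24.9, 28 and 26.6 CPM with siUPF1 and 12.6, 14.4 and 13.7 CPM with siNT (log2 0.97, SE 0.13, adjusted p = 3.54e-07), with similar rises in CLIP (1.04) and WT (0.91), and SELENOP rose by 1.21. SECISBP2, which binds the selenocysteine element, fell by 0.49. SELENOO (log2 -0.46) lost its call without siUPF1 replicate 3 (adjusted p = 0.0578) or siNT replicate 1 (0.0937), and the falls of the list then became 1. None of the 15 interferon response genes tested, of 22 listed, passed in edgeR, with 3 higher and 2 lower at an unadjusted p under 0.05 and 1 fall in DESeq2. The replicate block gave 3 rises and 2 falls, where 16.2% of all genes rose and 14.9% fell with the block. Leaving out siNT replicate 1 gave 1 rise and leaving out siUPF1 replicate 2 gave 2 falls.

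Of 13 mitochondrially encoded mRNAs 3 rose (MT-ND1, MT-ND2 and MT-ND5) and 10 did not pass. All 13 estimates were above 0 in FE-ER, and the median log2 change was 0.38 in FE-ER, 0.29 in F192E, 0.05 in E797R, 0.14 in WT and -0.03 in CLIP, with 1 rise in F192E and none in E797R, WT or CLIP. MT-ND5 had 4871, 3324 and 5817 CPM with siUPF1 and 3214, 3269 and 3398 CPM with siNT (log2 0.50, adjusted p = 0.0147). Replicate 2 lay within the siNT range for this gene, and the other 2 siUPF1 libraries above it. The 3 rises became 1 without siUPF1 replicate 1 and 0 without siUPF1 replicate 3 or siNT replicate 1, and 6 with the replicate block. Single calls were lost for MT-ND1 in each leave-one-out fit but that without siUPF1 replicate 2 (adjusted p = 0.0756 to 0.221), for MT-ND2 without siUPF1 replicate 3 or siNT replicate 1 (0.0869 to 0.186), and for MT-ND5 without siUPF1 replicate 1 or 3 or siNT replicate 1 (0.0536 to 0.194). Of 11 abundant structural RNAs MALAT1 fell (log2 -0.52, adjusted p = 0.0145), a call lost without siUPF1 replicate 2 (0.0705). The part of RNA quality in the results above was not tested.

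**Figure D3:**
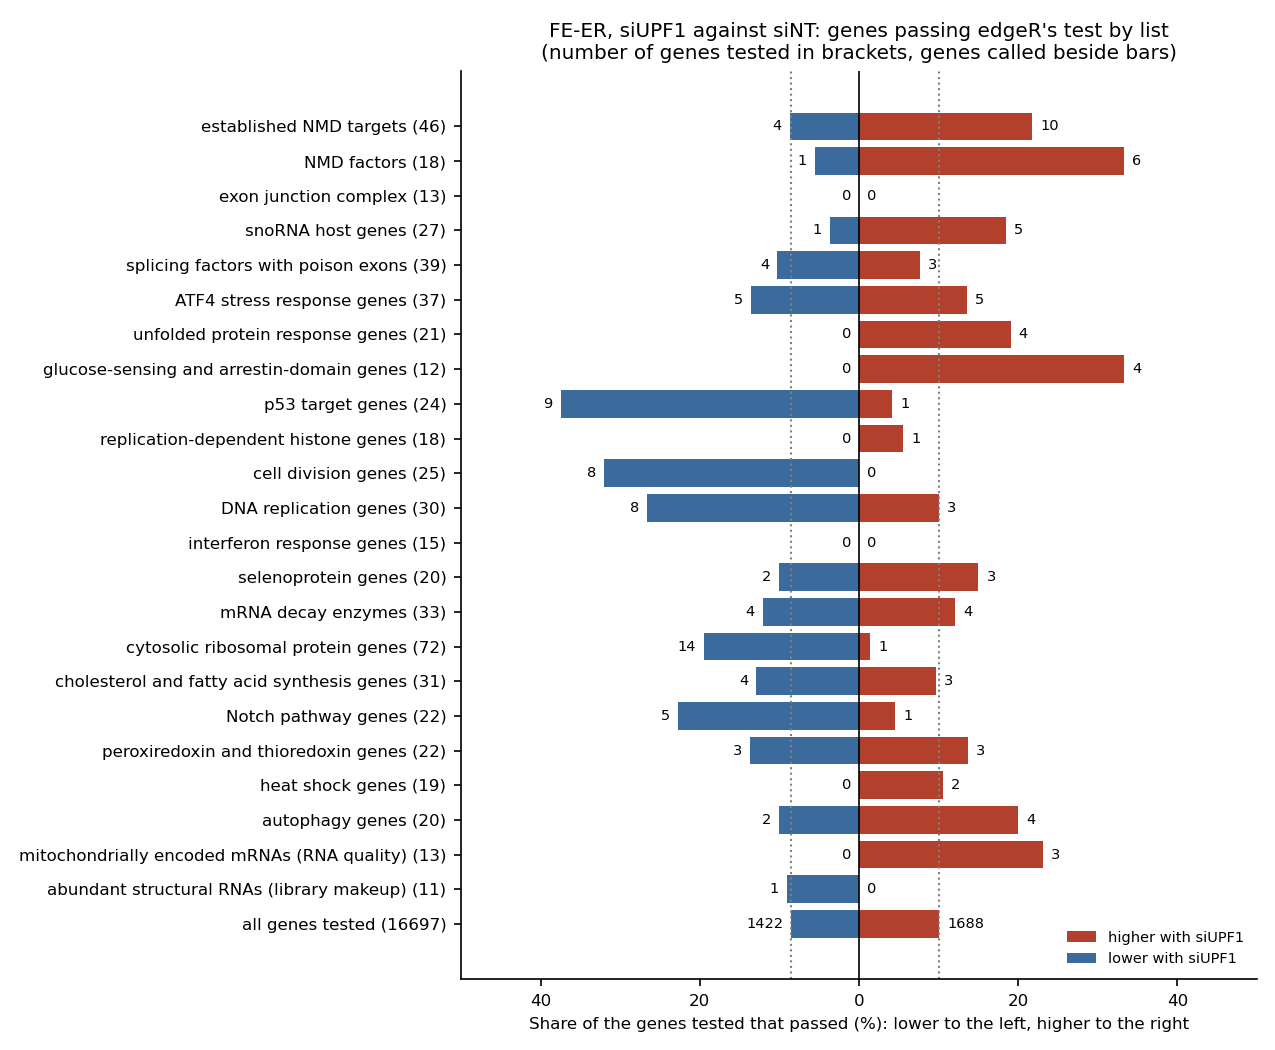
Share of the genes tested in each list that passed in FE-ER, higher with siUPF1 to the right and lower to the left, with the number of genes at each bar, the number tested in brackets and dotted lines at the shares over all genes (10.1% and 8.52%). NMD factors (6 of 18) and glucose-sensing genes (4 of 12) reach farthest to the right, and p53 targets (9 of 24) and cell division genes (8 of 25) farthest to the left.

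The response of FE-ER was then compared with that of CLIP cells, in which no UPF1 transgene is present. Of the 1688 genes that rose in FE-ER 1400 also rose in CLIP (82.9% of the FE-ER list and 46.4% of the 3017 genes of the CLIP list). Of the 1422 that fell 1139 also fell in CLIP (80.1% and 43.7%). Over all genes tested 18.1% rose and 15.6% fell in CLIP, and 8.43% rose and 6.98% fell in WT. Of the FE-ER rises 1050 also rose in WT (62.2% of the FE-ER list and 74.6% of the WT list). Of the FE-ER falls 852 also fell in WT (59.9% and 73.1%). In the test of the difference 200 genes responded lower in FE-ER than in CLIP and 21 higher (1.2% and 0.126%, 1.32% together). With the replicate block these were 520 and 111 (3.11% and 0.665%, 3.78% together), and leaving out 1 library at a time gave 150 to 250 lower genes and 8 to 24 higher ones. The 21 became 8 to 12 without FE-ER siUPF1 replicate 1 or 3, FE-ER siNT replicate 2, CLIP siUPF1 replicate 3 or CLIP siNT replicate 2 or 3. None of the 200 genes lower in FE-ER had fallen in CLIP, and in FE-ER itself 57 rose, 12 fell and 131 did not pass, with a median log2 change of 0.16 in FE-ER, 1.002 in CLIP and 0.03 in WT. They included 28 pseudogenes and 153 protein-coding genes, 2.35% and 1.15% of those tested.

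Genes with a lower response in FE-ER included copies of a chaperonin gene, a secreted hormone and NMD substrates. CCT6P1, a transcribed pseudogene of the chaperonin gene CCT6A, had 4.13, 5.79 and 3.94 CPM with siUPF1 and 2.81, 4.37 and 2.82 CPM with siNT in FE-ER, and 16.3, 32.8 and 29.8 CPM with siUPF1 against 2.12, 3.19 and 2.58 CPM with siNT in CLIP. The FE-ER minus CLIP difference was -2.81 in log2 (SE 0.31, adjusted p = 1.94e-07), and for CCT6P3 it was -1.82 (SE 0.39, adjusted p = 0.00661). STC2, the glycoprotein stanniocalcin 2, had 145, 87.3 and 134 CPM with siUPF1 and 138, 75.2 and 118 CPM with siNT in FE-ER, and 366, 397 and 487 CPM against 101, 99.5 and 117 CPM in CLIP (difference -1.84, SE 0.46, adjusted p = 0.0322). FE-ER groups overlapped in STC2, while all CLIP siUPF1 libraries were above all CLIP siNT libraries. RASSF1, a tumour suppressor gene picked out after its values were seen, had 18.3, 16 and 14.8 CPM with siUPF1 and 16.6, 15.4 and 10.9 CPM with siNT in FE-ER, and 40.2, 44.7 and 51.1 CPM against 14.1, 11.9 and 12.1 CPM in CLIP (difference -1.65, SE 0.22, adjusted p = 7.3e-06). The noncoding AC133644.3 (difference -2.33) and GOLGA8T, a member of a duplicated golgin family (-1.76), completed the 5 largest. Reads of the CCT6 and golgin copies can be divided among near-identical sequences.

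SMG1 rose in FE-ER by less than in CLIP, where it had 908, 1014 and 1023 CPM with siUPF1 and 363, 341 and 301 CPM with siNT (difference -0.73, SE 0.12, adjusted p = 0.000232). SNHG7 (-1.02, adjusted p = 2.13e-05), ZFAND2A (-1.33), GABARAPL1 (-0.76) and HNRNPH3 (-0.61) also rose in both lines and by less in FE-ER. The difference did not pass for BAG1 (-0.54, adjusted p = 0.46) or UPF2 (-0.25, 0.822), of which BAG1 passed with the replicate block (0.04). STC2 lost its difference in 8 of the 12 leave-one-out fits (adjusted p = 0.0526 to 0.107): only those without FE-ER siUPF1 replicate 1, FE-ER siNT replicate 2 or CLIP siUPF1 replicate 1 or 2 kept it.

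The genes with a higher response in FE-ER were genes that fell in CLIP, 4 of which fell in FE-ER too. UPF1, whose reads include those of the transgene in FE-ER, was first (difference 2.50, SE 0.17, adjusted p = 1.68e-13). MAP2K6, which encodes a p38-activating kinase, had 23.2, 26.4 and 24.4 CPM with siUPF1 and 36.6, 47.1 and 42.3 CPM with siNT in FE-ER, and 7.02, 4.96 and 5.44 CPM against 42.7, 49 and 39.5 CPM in CLIP (difference 2.15, SE 0.25, adjusted p = 7.07e-07). It fell in both lines, by 0.76 on the log2 scale in FE-ER and by 2.92 in CLIP. IFIT1, an interferon-induced RNA-binding protein, had 2.58, 3.23 and 3.28 CPM with siUPF1 and 4.26, 2.19 and 4.6 CPM with siNT in FE-ER, and 1.36, 1.01 and 0.68 CPM against 3.31, 4.43 and 3.91 CPM in CLIP (difference 1.62, SE 0.41, adjusted p = 0.0267). LYPD6B (1.45, adjusted p = 0.0213) and AC010980.2 (1.08, 0.0351) followed. These last 3 were low genes, under 6 CPM in each FE-ER library, and lost the call on leaving out single libraries: IFIT1 in 7 of 12 fits (without FE-ER siUPF1 replicate 2 or 3, FE-ER siNT replicate 2, CLIP siUPF1 replicate 2 or 3, or CLIP siNT replicate 2 or 3, adjusted p = 0.0579 to 0.134), LYPD6B in 5 (without FE-ER siUPF1 replicate 1, FE-ER siNT replicate 2, CLIP siUPF1 replicate 1 or 2, or CLIP siNT replicate 3, 0.0575 to 0.116), and AC010980.2 in 10, all but those without FE-ER siNT replicate 3 or CLIP siNT replicate 1 (0.0529 to 0.118).

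**Figure D4:**
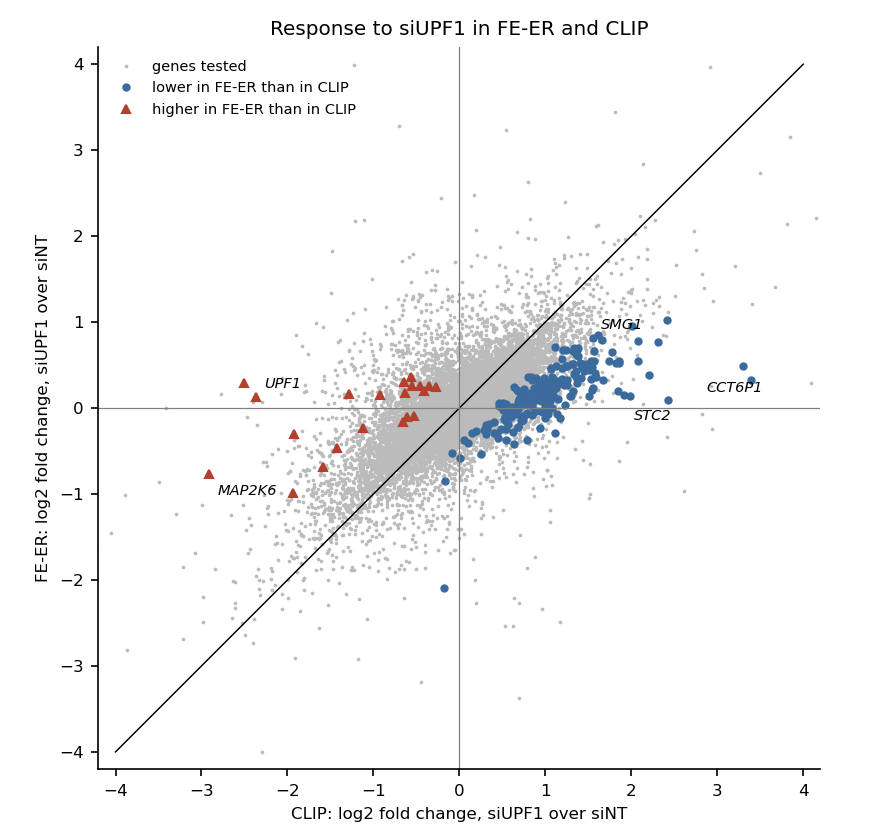
Log2 fold change of siUPF1 over siNT in FE-ER (vertical) and CLIP (horizontal) for each gene tested, with the line of equal response. The 200 genes lower in FE-ER (blue) lie below the line, most of them between 0 and 1 in FE-ER, the 21 higher genes (red) lie above it, and 32 genes beyond 4.2 on either axis, none of them called, are not drawn.

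The size of the response was measured over the 1571 genes that had risen by at least 1.5-fold in CLIP, called the CLIP-rise set below. The value of a replicate is the mean over these genes of the log2 level with siUPF1 minus that with siNT. It was 0.519, 0.542 and 0.566 in the 3 FE-ER replicates (0.54 ± 0.02, SD, n = 3), 0.595, 0.705 and 0.606 in F192E, 0.380, 0.414 and 0.315 in E797R, and 0.439, 0.427 and 0.369 in WT. The FE-ER replicates lay above all those of WT and E797R and below all those of F192E, with no overlap, and in the order of the 8 lines FE-ER stood between IR-ER (0.434 to 0.5) and F192E. The value for CLIP (0.96) follows from how the set was chosen and is a description only. In FE-ER 874 of the 1571 genes rose (55.6%, where 10.1% of all genes rose), in F192E 1067 (67.9%, against 11.8%), in E797R 562 (35.8%, against 8.34%) and in WT 618 (39.3%, against 8.43%). Their median log2 change was 0.52 in FE-ER, 0.59 in F192E, 0.35 in E797R and 0.39 in WT. Of the 1447 genes that had fallen in CLIP by at least 1.5-fold 726 fell in FE-ER (50.2%, where 8.52% of all genes fell). In F192E 886 fell (61.2%, against 10.1%), in E797R 594 (41.1%, against 7.73%) and in WT 597 (41.3%, against 6.98%). Their mean response was -0.66 ± 0.02 in FE-ER, -0.71 ± 0.02 in F192E, -0.56 ± 0.02 in E797R and -0.58 ± 0.02 in WT (SD, n = 3 each).

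**Figure D5:**
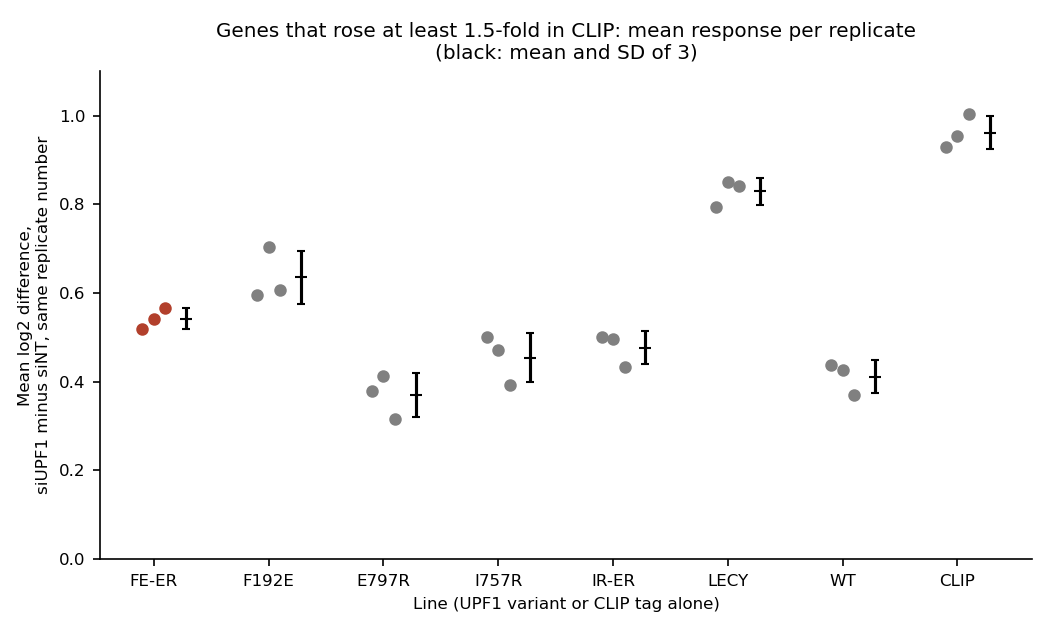
Mean log2 difference of siUPF1 minus siNT over the 1571 genes that rose at least 1.5-fold in CLIP, 1 point per replicate number, with the mean and SD of 3 in black and FE-ER in red. FE-ER lies at 0.519 to 0.566, above WT and E797R and below F192E, LECY and CLIP.

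Few single genes passed the test of the difference between FE-ER and the other UPF1 lines. Against WT, SMG1 was the 1 gene with a higher response in FE-ER and no gene was lower (0.00599% of those tested, with 284 higher and 142 lower at an unadjusted p under 0.05). SMG1 had 647, 632 and 579 CPM with siUPF1 and 381, 368 and 306 CPM with siNT in FE-ER, and 400, 430 and 363 CPM against 370, 382 and 334 CPM in WT, a log2 difference of 0.68 (SE 0.12, adjusted p = 0.0372). The FE-ER libraries separated by siRNA and those of WT overlapped, although each WT siUPF1 library was above the siNT library of its replicate number. The difference stayed between 0.58 and 0.73 on leaving out any 1 library, but 9 of these 12 fits gave an adjusted p above the threshold (0.0516 to 0.461): those without FE-ER siUPF1 replicate 1 or 2, FE-ER siNT replicate 2 or 3, WT siUPF1 replicate 1, 2 or 3, or WT siNT replicate 1 or 2. With the replicate block 5 genes were higher in FE-ER (0.0299%): SMG1 (adjusted p = 1.55e-05), SMG9, which forms a complex with SMG1 (0.000238), SNHG7 (0.00245), FAM168B (0.0194) and PARP6 (0.0277).

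Against F192E no gene passed in either direction (99 higher and 139 lower at an unadjusted p under 0.05), and with the replicate block 3 were lower and none higher. Against E797R no gene passed either (400 higher and 184 lower at an unadjusted p), and with the replicate block 17 were higher and none lower in FE-ER. These 17 included SMG1, SMG9, SNHG7 (log2 0.55 in FE-ER and -0.12 in E797R, adjusted p = 0.00687), SLC7A5 (1.03 and 0.44, 0.016) and DMPK, the myotonic dystrophy kinase gene (0.65 and -0.08, 0.00506). DESeq2 gave 1 gene lower than in F192E and 1 higher than in E797R. These comparisons share the FE-ER libraries, so their values are set side by side and not counted as independent.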

How the data were processed

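RNA of 48 libraries was measured by paired-end sequencing after removal of ribosomal RNA. The authors deposited RSEM expected counts for 58870 genes (9.16% of values not whole). Cutadapt, STAR, RSEM and DESeq2 on hg38 are named in the submitters' processing notes, without versions. Neither annotation nor strand setting is stated there, so whether antisense or overlapping genes were counted apart is not known.

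Expected counts were rounded. EdgeR 4.0.16 (R 4.3.3) kept 16697 genes by filterByExpr (minimum count 10) and fitted all 48 libraries in 16 groups with TMM factors and a robust quasi-likelihood model. The contrasts were siUPF1 against siNT in FE-ER, and that effect minus the one in F192E, E797R, WT and CLIP. Tests were two-sided with Benjamini-Hochberg adjustment. The SE is the log2 fold change divided by the square root of F. Positions came from GENCODE 29, matched by ID for 16667 genes. The response per replicate used log2 CPM with a prior count of 2.

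The labels number the replicates 1 to 3. Deviations from the group means correlated at 0.313, 0.355 and 0.222 between same-numbered FE-ER libraries, so the numbers were taken to pair them and a fit with the number as a block was run beside the fit without it. No pair of FE-ER libraries of 1 group agreed within counting noise.

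Members, gene lists and tests were chosen with earlier results of these data known. Genes named were the 12 largest rises and falls among called genes with a mean of at least 2 CPM and no overlap, the 5 largest per direction in a difference, and the 4 smallest p-values in each of 23 lists. RASSF1 and other list members were picked after their values were seen, and 3 genes are not reported here. The model was tested on simulated data: of 100 genes changed 2-fold in FE-ER 64 were called, of 100 changed 1.5-fold 38, and of 16278 unchanged 8. For the difference from CLIP, 42 and 9 of 100 were called. Only 200 of 16478 genes were changed in the simulation, and no effect of the replicate number was simulated. In the FE-ER knockdown 18.6% of the genes tested were called, so recovery there may differ from the simulated one. Libraries of 1 FE-ER group differed by more than counting noise, and the p-values measure the spread between these libraries.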

Additional observations from a re-analysis of the deposited data

Results flagged for a closer look

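Each result below is a log2 difference between the knockdown effect in FE-ER and that in another line which passed the test of the difference itself (edgeR's quasi-likelihood F test, adjusted p under 0.05). Against CLIP the response was lower in FE-ER for CCT6P1 (-2.81), AC133644.3 (-2.33), STC2 (-1.84), CCT6P3 (-1.82), GOLGA8T (-1.76), ZFAND2A (-1.33), SNHG7 (-1.02), GABARAPL1 (-0.76), SMG1 (-0.73) and HNRNPH3 (-0.61). In FE-ER itself ZFAND2A, SNHG7, GABARAPL1, SMG1 and HNRNPH3 rose, and CCT6P1, AC133644.3, STC2, CCT6P3 and GOLGA8T did not pass. Against CLIP it was higher in FE-ER for UPF1 (2.50), MAP2K6 (2.15), IFIT1 (1.62), LYPD6B (1.45) and AC010980.2 (1.08), of which MAP2K6 fell in FE-ER and the others did not pass.

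Against WT the test of the difference passed for SMG1 (0.68). SMG1, CCT6P1, CCT6P3 and GOLGA8T have near-identical copies in the genome, and the part of read assignment in their values was not tested.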

How the results depend on the processing

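The direction of all but 1 of the 111 genes named for FE-ER held under each alternative run for it, and 75 of the 94 called genes kept their call on leaving out any 1 library. RNU2-2P, a structural RNA that did not pass (log2 0.30), changed sign to -0.30 without FE-ER siUPF1 replicate 2, within a range of -0.30 to 0.58 on leaving out 1 library, and to -0.09 without both FE-ER libraries of replicate 2, an alternative chosen after seeing the data. With the replicate block as a term, which follows the pairing described above, 2699 genes rose and 2493 fell in FE-ER, 111 were higher and 520 lower than in CLIP, 5 higher than in WT, 3 lower than in F192E and 17 higher than in E797R. The block removed no call of a gene named above. Leaving out both replicate 2 libraries gave 1026 rises, 11 genes higher than in CLIP and 0 higher than in WT.

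Without a filter on low counts 37 genes were higher than in CLIP, 16 higher and 10 lower than in WT, 9 higher and 19 lower than in F192E, and 23 higher and 7 lower than in E797R. With only the groups of each comparison in the fit 8 were higher than in CLIP and 0 higher than in WT. DESeq2 gave 308 lower than in CLIP, 1 lower than in F192E and 1 higher than in E797R. Over the genes that rose at least 2-fold in CLIP the mean response of FE-ER was 0.71. The cause of these shifts was not tested.

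Leaving out 1 library at a time gave 1131 to 1397 rises, 1071 to 1260 falls, 8 to 24 genes higher and 150 to 250 lower than in CLIP, 0 to 1 higher than in WT and 0 to 1 higher than in E797R. The FE-ER response of the CLIP-rise set ranged from 0.53 to 0.55 and the log2 change of UPF1 from 0.05 to 0.24. The simulation recovered 9 of 100 differences of 1.5-fold from CLIP, so under its settings most differences of that size from CLIP were missed. The other differences were not simulated.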
